A study of Mus musculus with 12 samples.

Results

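The genes described here are 10 regulators of insulin, leptin and lipid handling (Insr, Irs1, Irs2, Lepr, Pparg, Ppard, Nr1h3, Abca1, Abcg1 and Cd36), studied through the open chromatin around them in mouse bone marrow. A consensus ATAC-seq peak was taken as a member if its centre lay in one of these genes or within 15 kb of its ends (RefSeq positions on GRCm38, the assembly that mm10 carries), and it was given to the nearest of the 10 genes. This chose 75 of 75281 consensus peaks. They fell on 9 genes, since Lepr had 0 peaks in its window. The mice were of the NZO strain (NZO/HILtJ), inbred mice that become obese and, in part, diabetic, and carried no transgene or treatment in the labels. The groups were 3 females and 3 males aged 3 months and 3 females and 3 males aged 18 months, 12 libraries in all, of 1 mouse each by the mouse numbers in the labels. In ATAC-seq the Tn5 transposase tags DNA that nucleosomes do not shield, so the read count over a peak measures how open its chromatin is in the cells sampled. The comparison was 18 against 3 months, with sex as a covariate.

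Insulin acts through its receptor Insr, a tyrosine kinase that phosphorylates the adaptors Irs1 and Irs2, which recruit phosphoinositide 3-kinase. Leptin, the hormone of fat cells, acts through Lepr, and in marrow Lepr is known as a marker of the stromal cells that support blood stem cells and can become marrow adipocytes. Pparg and Ppard are nuclear receptors activated by fatty acids, and Nr1h3 (LXR alpha) is a nuclear receptor activated by oxysterols. Abca1 and Abcg1 are cholesterol efflux transporters and classical LXR targets in macrophages. Cd36 takes up fatty acids and oxidised lipoproteins and is a classical PPAR gamma target in macrophages. It is also found on erythroid progenitors, platelets and endothelial cells.

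Total counts in peaks ran from 7668099 to 12756647 per library, so that 3 counts came to between 0.235 and 0.391 CPM (counts scaled to the same library total). The libraries came from 6 sequencing runs, none of which held both ages, so age and run cannot be told apart. At 18 months the females formed run 14 and the males run 15, so there sex and run cannot be told apart either. The labels' protocol speaks of sorted CD8 T cells while the sample labels name bone marrow. Of 9 T cell markers, Cd3e, Cd8a, Cd8b1, Cd4 and Thy1 had no peak at a gene start, while 10 of 12 erythroid and 13 of 14 neutrophil markers had one. The 3-month male of run 30 stood apart from the other 3-month libraries: its mean level over neutrophil marker starts was 4.44 log2 CPM, against 3.59 to 3.83 in the other 5 and 4.07 to 4.36 at 18 months. The counts over all member peaks, within each sex and over the pathway genes are also given without it.

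The promoters of 4 members whose start lies in a consensus peak show the kind of DNA that was open. They are the 250 bases before the RefSeq start, on the transcribed strand, from RefSeq on GRCm38.p6. Irs2 is shown because its start-site peak fell with age, Cd36 and Pparg because other peaks of theirs moved most, and Abca1 as the LXR target. Capitals mark matches on either strand to any of 8 motifs. These were AGGTCA, the core bound by nuclear receptors, then GAGGAA of Ets factors and PU.1, and AGATAA of erythroid and other GATA factors. The others were TGACTCA of AP-1, TTGCGCAA of the C/EBP family, GGGCGG of Sp and KLF factors, the E-box CACGTG, and a sterol response element, TCACCCCAC.
Irs2, chr8:11008930-11009179, minus strand: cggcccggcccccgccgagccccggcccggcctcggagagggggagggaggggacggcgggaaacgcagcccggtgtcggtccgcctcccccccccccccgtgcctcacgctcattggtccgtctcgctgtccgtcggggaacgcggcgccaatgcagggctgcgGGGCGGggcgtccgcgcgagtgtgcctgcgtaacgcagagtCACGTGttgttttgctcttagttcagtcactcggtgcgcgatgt
Abca1, chr4:53159896-53160145, minus strand: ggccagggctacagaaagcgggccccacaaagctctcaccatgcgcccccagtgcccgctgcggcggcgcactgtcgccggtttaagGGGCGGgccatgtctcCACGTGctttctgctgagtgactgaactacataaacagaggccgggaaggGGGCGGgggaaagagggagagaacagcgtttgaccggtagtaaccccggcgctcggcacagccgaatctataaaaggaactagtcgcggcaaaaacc
Cd36, chr5:17835897-17836146, minus strand: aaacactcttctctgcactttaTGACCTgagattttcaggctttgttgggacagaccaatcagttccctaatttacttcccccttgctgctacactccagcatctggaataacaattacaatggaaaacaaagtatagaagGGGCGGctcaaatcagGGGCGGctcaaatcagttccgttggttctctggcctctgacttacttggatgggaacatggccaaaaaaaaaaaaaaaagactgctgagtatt
Pparg, chr6:115360894-115361143, plus strand: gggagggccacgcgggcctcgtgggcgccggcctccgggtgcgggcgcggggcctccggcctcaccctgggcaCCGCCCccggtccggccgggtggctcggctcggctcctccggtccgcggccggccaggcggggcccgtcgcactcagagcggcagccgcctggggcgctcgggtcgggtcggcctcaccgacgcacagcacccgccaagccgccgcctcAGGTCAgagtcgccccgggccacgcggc

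All 250 bases of each lay inside the start-site peak. The Irs2 promoter held GGGCGG and CACGTG, and that of Abca1 held GGGCGG at 2 places and CACGTG. In Cd36 the bases TGACCT, the reverse of AGGTCA on the other strand, lay 228 bases before the start, with GGGCGG at 2 places nearer to it. The Pparg promoter held AGGTCA 28 bases before the start and CCGCCC, the other strand of GGGCGG. Over the 32851 promoters of the table, windows of the same length held AGGTCA in 14%, GGGCGG in 32.7% and CACGTG in 6.02%. Base composition differed widely: G and C made up 82.4% of the Pparg promoter, 72.8% of that of Irs2, 61.6% of that of Abca1 and 43.2% of that of Cd36. RefSeq promoter sequences were found for 8 of the 10 members. The peaks that changed inside and beside the genes are given by position only.

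With age, 11 of the 75 member peaks met the threshold: 6 were higher at 18 months and 5 lower (edgeR quasi-likelihood test, Benjamini-Hochberg adjusted p under 0.05 over all 75164 tested peaks). That is 14.7% of the member peaks, while over all tested peaks 21.0% passed, 9.43% higher and 11.6% lower. The members as a group were thus called no more often than peaks at large. All 75 passed the filter on low counts. Their median log2 fold change was 0.03, against 0.02 over all tested peaks, and single peaks ranged from -0.88 to 0.80. The size of change was also like that of other peaks, with a median absolute log2 fold change of 0.23 against 0.22. Under scaling to total counts the median moved to 0.11 for the members and 0.10 for all peaks, and the member calls became 12 higher and 3 lower, when 23.7% of all peaks passed. Without the 3-month male of run 30, 13 member peaks were higher and 5 lower, when 24.9% of all peaks passed. Without the 18-month male 40, 3 were higher and 3 lower, when 17.3% of all peaks passed.

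**Figure D1:**
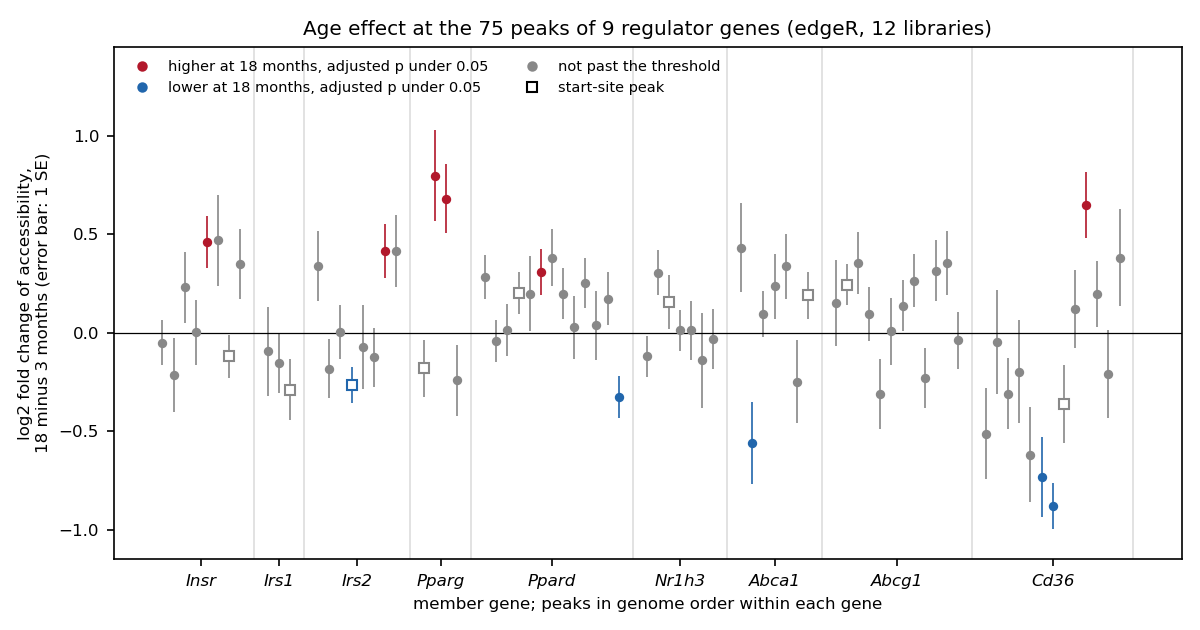
The log2 fold change of accessibility (18 minus 3 months, 12 libraries, error bars 1 SE) is plotted for each of the 75 member peaks by gene, with open squares for start-site peaks, red and blue for peaks past the threshold and grey for the rest. The lowest values, down to -0.88, belong to Cd36 and the highest, up to 0.80, to Pparg.

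Open chromatin at 18 months was lower by a factor of 1.84 at the main Cd36 element, a 2152 bp peak inside the gene, centred 6.18 kb after the RefSeq start (chromosome 5, 17828639 to 17830791). At 3 months the 6 libraries ran from 20.4 to 35.1 CPM with a median of 30.2, and at 18 months from 11.2 to 19.5 CPM with a median of 16.0. Every 18-month library was below every 3-month library. This log2 fold change of -0.88 (SE 0.115, edgeR adjusted p = 8.16e-08) was the largest change and smallest p of the 75 peaks. It was present in both sexes, -0.92 in females (edgeR adjusted p = 2.42e-05) and -0.84 in males (edgeR adjusted p = 0.00021), and no other member peak passed in both sexes.

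The Cd36 peak next to it fell as well, and another rose. The neighbour, a 753 bp peak centred 8.07 kb after the start (chromosome 5, 17827450 to 17828203), ran from 4.13 to 8.34 CPM (median 5.55) at 3 months and from 2.31 to 5.39 CPM (median 3.499) at 18 months. The ages overlapped there, with a log2 fold change of -0.73 (SE 0.202, edgeR adjusted p = 0.00668). The female value was -1.18 and the male value -0.26, a difference that did not pass in the interaction test (0.92, SE 0.381, edgeR adjusted p = 0.407). A 487 bp peak 18.8 kb before the RefSeq start but inside the gene's full extent (chromosome 5, 17854418 to 17854905) had the opposite direction. It ran from 3.19 to 6.10 CPM (median 4.36) at 3 months and from 4.05 to 8.93 CPM (median 7.51) at 18 months, with a log2 fold change of 0.65 (SE 0.169, edgeR adjusted p = 0.00422). Along this gene, then, 2 peaks passed as lower and 1 as higher. Of its 13 peaks, 9 had a negative log2 fold change and 4 a positive one. The peak from 17824121 was close to the threshold but did not pass (-0.62, edgeR adjusted p = 0.0586). The peak from 17789231 did not pass over all libraries (-0.51, edgeR adjusted p = 0.107). Without the 3-month male of run 30 it passed as lower (-0.65, edgeR adjusted p = 0.0283). The start-site peak whose promoter is printed above had 3.60 ± 1.03 CPM at 18 months against 4.59 ± 1.102 CPM at 3 months (SD, n = 6 each) and did not pass (edgeR adjusted p = 0.195). Summed over its 13 peaks, Cd36 held 60.2 ± 5.27 CPM at 18 months against 76.5 ± 7.68 CPM at 3 months (SD, n = 6 each). The 2152 bp peak gave 15.9 CPM of the 18-month sum and 29.4 CPM of the 3-month sum. Of the 9 genes Cd36 was the only one whose summed CPM did not overlap between the ages, which was not counted over other genes.

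Marker genes moved in the same samples. Erythroid markers fell at all 10 start-site peaks measured, and they averaged 5.70 ± 0.149 log2 CPM at 3 months against 4.77 ± 0.0842 at 18 months (SD, n = 6 each). Their summed CPM ran from 300.9 to 333.6 at 18 months and from 530.1 to 682.6 at 3 months, and Alas2 and Ahsp had no start-site peak. Of the megakaryocyte and platelet list, 2 of 4 measured starts fell (sums from 66.4 to 78.7 against 91.5 to 108.0 CPM), and Ppbp, Treml1 and Vwf had none. Neutrophil markers rose at 9 of 13 starts and monocyte and macrophage markers at 2 of 8. The neutrophil sums ran from 258.4 to 317.5 CPM at 18 months and from 171.1 to 330.6 at 3 months, and Elane had no start-site peak. For monocytes and macrophages they ran from 97.8 to 110.6 and from 83.7 to 102.6 CPM, while the mean log2 CPM over the list did not overlap (3.12 to 3.36 at 18 months and 2.86 to 3.05 at 3 months), and C1qa, C1qb, Spic and Marco had none. Of the B cell list 0 of 9 measured starts passed in edgeR (sums from 78.2 to 108.8 and from 92.5 to 121.1 CPM). Their mean log2 CPM went opposite ways in the sexes, from 3.51 to 3.61 at 18 months and 3.36 to 3.44 at 3 months in females, and from 3.15 to 3.33 and 3.49 to 3.71 in males. Of the T cell list 1 of 4 starts fell (68.4 to 75.0 and 70.7 to 84.9 CPM). Of the endothelial list 0 of 2 passed in edgeR (9.49 to 14.4 and 9.14 to 14.5 CPM), and Kdr, Tek, Emcn, Stab2 and Pecam1 had none. The part of these marker shifts in the Cd36 values, and in all values below, was not tested. In bulk marrow, fewer cells of a type and less open chromatin per cell cannot be told apart.

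**Figure D2:**
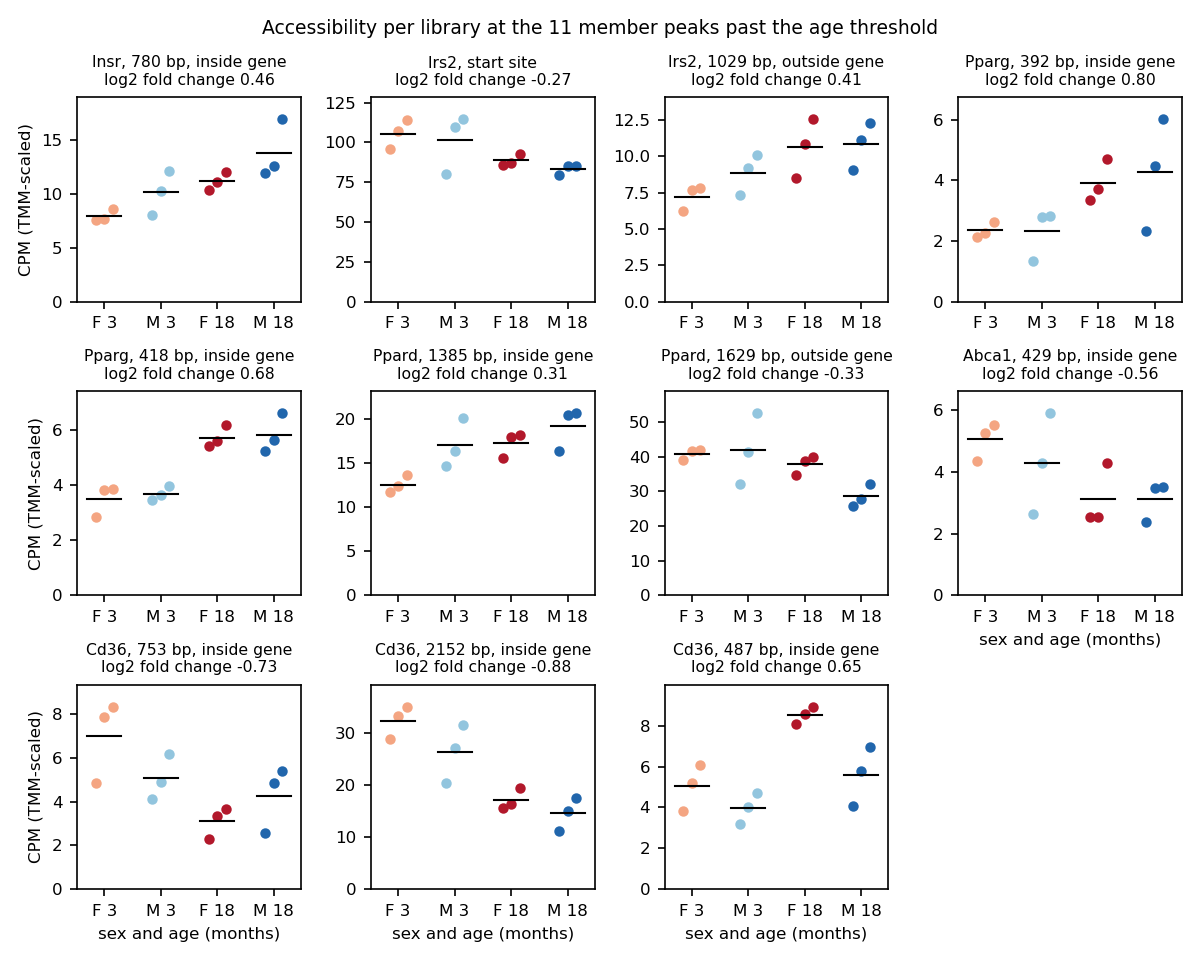
Each panel plots CPM (scaled by trimmed mean of M-values, y axis from 0) in the 12 libraries at a member peak past the age threshold, by sex and age in months, with a bar at the mean of 3 mice. Only the 2152 bp Cd36 peak (lower) and the 418 bp Pparg peak (higher) separate all 18-month from all 3-month libraries.

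Pparg, the master regulator of fat cell formation, rose at 2 of its 4 peaks, both small and inside the gene. The first, 418 bp wide, was centred 2.70 kb after the furthest downstream of 3 RefSeq starts (chromosome 6, 115424560 to 115424978). It ran from 2.85 to 3.97 CPM (median 3.73) at 3 months and from 5.22 to 6.61 CPM (median 5.62) at 18 months, with no overlap. Its log2 fold change was 0.68 (SE 0.174, edgeR adjusted p = 0.00355), with 0.70 in females and 0.66 in males. The second, 392 bp wide and 13.3 kb after the nearest start (chromosome 6, 115375451 to 115375843), ran from 1.36 to 2.83 CPM (median 2.46) at 3 months and from 2.35 to 6.02 CPM (median 4.10) at 18 months. Some libraries overlapped, and the log2 fold change was 0.80 (SE 0.231, edgeR adjusted p = 0.0101). Without the 18-month male 40 this call was lost (log2 fold change 0.66, edgeR adjusted p = 0.0534).

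The Pparg start-site peak did not follow them. It held 7.92 ± 0.932 CPM at 18 months against 8.999 ± 1.83 CPM at 3 months (SD, n = 6 each) (log2 fold change -0.18, SE 0.144, edgeR adjusted p = 0.397). The fourth peak, near the far end of the gene, had a log2 fold change of -0.24 and did not pass either. Markers of marrow stroma and adipocytes were poorly represented: Cxcl12, Adipoq, Plin1, Cidec, Pdgfra and Pdgfrb had no start-site peak, and 0 of the 4 measured starts changed (edgeR, summed CPM from 19.0 to 22.2 at 18 months and from 16.9 to 26.6 at 3 months).

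Ppard, the widely expressed relative of Pparg, had 13 peaks, of which 11 had a positive log2 fold change but only 1 passed as higher. That peak, 14.7 kb inside the gene (chromosome 17, 28246753 to 28248138), ran from 11.7 to 20.1 CPM (median 14.2) at 3 months and from 15.5 to 20.7 CPM (median 18.1) at 18 months. Its log2 fold change of 0.31 (SE 0.116) was close to the threshold (edgeR adjusted p = 0.0489). The peak passed in 6 of 17 alternative fits. Another inside the gene, from 28256594, held 9.55 ± 1.68 CPM at 18 months against 7.32 ± 0.980 CPM at 3 months (SD, n = 6 each) and just missed the threshold (0.38, edgeR adjusted p = 0.0512). The start-site peak held 34.0 ± 3.61 CPM at 18 months against 29.5 ± 5.24 CPM at 3 months (SD, n = 6 each) and did not pass (edgeR adjusted p = 0.180). A peak in the window that fell lies at the start of another gene, Fance (chromosome 17, 28312938 to 28314567, log2 fold change -0.33, SE 0.107, edgeR adjusted p = 0.0221). It had 33.2 ± 5.70 CPM at 18 months against 41.4 ± 6.59 CPM at 3 months (SD, n = 6 each). Without the 3-month male of run 30 the Fance peak had -0.22 and no longer passed (edgeR adjusted p = 0.0602), while 4 Ppard peaks passed as higher instead of 1. Those gained were the start site (0.28, edgeR adjusted p = 0.0233), the peak from 28256594 (0.42, edgeR adjusted p = 0.0244) and one in Def6 from 28217408 (0.38, edgeR adjusted p = 0.00416). The start site also passed with total counts (0.28), with offsets fitted on abundance (0.35) and with offsets fitted on peak width (0.32).

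Nr1h3 showed no called change at any of its 7 peaks. Its start-site peak held 9.24 ± 0.878 CPM at 18 months against 8.34 ± 1.22 CPM at 3 months (SD, n = 6 each) (log2 fold change 0.16, SE 0.137, edgeR adjusted p = 0.451). Nearest to the threshold was a peak at the 3′ end of the gene and beside Madd (chromosome 2, 91183728 to 91184560), with 16.3 ± 1.85 against 13.1 ± 1.43 CPM (SD, n = 6 each) and a log2 fold change of 0.30 (SE 0.116, edgeR adjusted p = 0.0527). Without the 3-month male of run 30 it passed (0.33, edgeR adjusted p = 0.0276). The next in order, in Madd and in Acp2, had values of -0.12 and -0.14. This gene is compact, and 10 of all 75 member peaks lay in another protein-coding gene or within 1 kb of its end, among them peaks of this window in Madd and Acp2, of the Ppard window in Def6 and Fance.

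**Figure D3:**
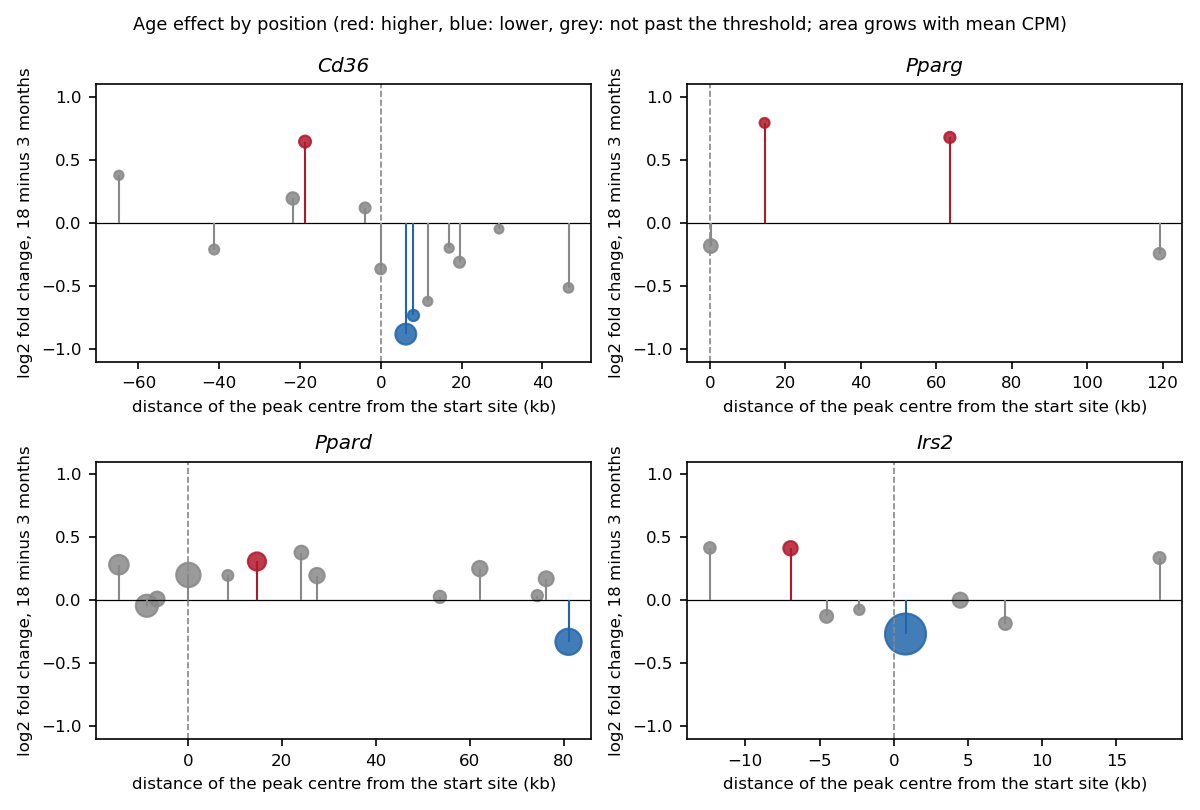
The log2 fold change of each peak (18 minus 3 months) is plotted against the distance of its centre from the furthest upstream RefSeq start (dashed line, in kb along the direction of transcription) for Cd36, Pparg, Ppard and Irs2, with point area growing with mean CPM. In Cd36 the lowest values lie 6.18 and 8.07 kb after the start, and in Irs2 the large start-site peak is below 0 while the peak 6.96 kb before it is above.

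At the cholesterol exporters, 1 of 7 Abca1 peaks passed, as lower, and 0 of 12 Abcg1 peaks did (edgeR), though the Abcg1 start passed in several alternative fits. The Abcg1 start-site peak (chromosome 17, 31057337 to 31059289) held 27.9 ± 1.72 CPM at 18 months against 23.7 ± 4.12 CPM at 3 months (SD, n = 6 each). Its log2 fold change of 0.24 (SE 0.106) did not pass (edgeR adjusted p = 0.0926). Without the 3-month male of run 30 it did, at 0.33 (edgeR adjusted p = 0.00817), as it did with total counts (0.32, edgeR adjusted p = 0.0111) and with offsets fitted on abundance (0.36, edgeR adjusted p = 0.00374) or on width (0.39, edgeR adjusted p = 0.00398). The peak from 31060501 passed without that male (0.50, edgeR adjusted p = 0.00994) and with total counts (edgeR adjusted p = 0.0427). Of the 12 Abcg1 peaks 9 had a positive value, and 2 passed within females. The others nearest to the threshold had values of 0.35, 0.35 and 0.31. The Abca1 start-site peak (chromosome 4, 53158510 to 53160145) held 19.8 ± 2.88 CPM at 18 months against 17.4 ± 2.93 CPM at 3 months (SD, n = 6 each) (log2 fold change 0.19, SE 0.119, edgeR adjusted p = 0.270).

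Within females both exporter starts passed, and within males neither did. The Abca1 start-site value was 0.48 in females (edgeR adjusted p = 0.0333) and -0.10 in males, and that of Abcg1 0.41 in females (edgeR adjusted p = 0.0485) and 0.08 in males. The differences between the sexes were -0.58 (SE 0.221, edgeR adjusted p = 0.366) and -0.33 (SE 0.202, edgeR adjusted p = 0.592), so neither passed the interaction test. The B cell marker level given above was also higher at 18 months in the females and lower in the males, and its part was not tested. The single Abca1 peak past the threshold over both sexes was a 429 bp peak 47.6 kb inside the gene (chromosome 4, 53112096 to 53112525), which fell. It ran from 2.66 to 5.92 CPM (median 4.82) at 3 months and from 2.38 to 4.29 CPM (median 3.02) at 18 months, with a log2 fold change of -0.56 (SE 0.209, edgeR adjusted p = 0.0476). It passed in 8 of 17 alternative fits. A neighbour from 53110587 had the opposite sign (0.43) and did not pass (edgeR adjusted p = 0.170), nor did a peak from 53129995 (0.34, edgeR adjusted p = 0.142).

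In the insulin branch, Insr rose at 1 of 8 peaks, Irs2 rose at 1 and fell at 1 of 8, and none of the 3 Irs1 peaks passed. The Insr peak, 780 bp wide and inside the gene (chromosome 8, 3250950 to 3251730), ran from 7.60 to 12.1 CPM (median 8.31) at 3 months and from 10.3 to 16.9 CPM (median 12.0) at 18 months. The ages overlapped, and the log2 fold change was 0.46 (SE 0.131, edgeR adjusted p = 0.00851), with 0.49 in females and 0.43 in males. The Insr start-site peak (chromosome 8, 3278665 to 3279957) did not pass, with 24.8 ± 3.30 CPM at 18 months against 26.9 ± 4.82 CPM at 3 months (SD, n = 6 each) (edgeR adjusted p = 0.469). The Insr peaks next in order of p, from 3260377 and from 3288352, had values of 0.47 and 0.35 and did not pass over all libraries (edgeR adjusted p = 0.142 and 0.157). Without the 3-month male of run 30 the latter did, at 0.60 (edgeR adjusted p = 0.00306).

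Irs2 had the widest and strongest of the member peaks, 5291 bp over its start (chromosome 8, 11005492 to 11010783). It ran from 79.8 to 114.5 CPM (median 108.2) at 3 months and from 79.6 to 92.7 CPM (median 85.6) at 18 months. The lowest 3-month library lay among the 18-month libraries. The log2 fold change was -0.27 (SE 0.0902, edgeR adjusted p = 0.028), and it shrank to -0.02 with offsets fitted on peak width (edgeR adjusted p = 0.900). A 1029 bp peak 6.96 kb before the Irs2 start rose (chromosome 8, 11015373 to 11016402). It ran from 6.23 to 10.1 CPM (median 7.73) at 3 months and from 8.52 to 12.6 CPM (median 10.97) at 18 months (log2 fold change 0.41, SE 0.139, edgeR adjusted p = 0.0266), and passed in 11 of 17 alternative fits. At Irs1 the peak nearest the start held 5.77 ± 0.822 CPM at 18 months against 7.05 ± 0.973 CPM at 3 months (SD, n = 6 each) (log2 fold change -0.29, SE 0.154, edgeR adjusted p = 0.180). Its other peaks had values of -0.16 and -0.10. Further Irs2 peaks with positive values lay inside the gene (from 10990725, 0.34, edgeR adjusted p = 0.176) and upstream (from 11021081, 0.42, edgeR adjusted p = 0.0970). The upstream one passed within males (0.80, edgeR adjusted p = 0.0251) and not within females (0.04), a difference with an edgeR adjusted interaction p of 0.461.

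Lepr had no consensus peak between 15 kb before and 15 kb after its ends (chromosome 4, gene from 101717137 to 101815352). The nearest peaks were centred 52.6 kb before the gene and 125.0 kb after it. The former had 5.20 ± 1.13 CPM at 18 months against 5.66 ± 1.121 CPM at 3 months (SD, n = 6 each) (edgeR adjusted p = 0.682). The latter, in Pramel19, rose from 3.63 ± 1.08 to 5.21 ± 0.843 CPM (SD, n = 6 each, log2 fold change 0.52, SE 0.192, edgeR adjusted p = 0.0450). Reads at Lepr outside consensus peaks were not analysed here, so the gene has no value at either age.

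Set side by side per kb of peak with both ages pooled, the start-site peaks of Insr, Ppard and Irs2 were the most open, with 20 ± 3.17, 18.8 ± 2.89 and 17.9 ± 2.48 CPM per kb (SD, n = 12). Their order differed by age. The means at 18 months were 20.1 for Ppard, 19.2 for Insr and 16.2 for Irs2, and at 3 months 20.8 for Insr, 19.5 for Irs2 and 17.5 for Ppard. Abcg1, Nr1h3 and Abca1 followed with 13.2 ± 1.92, 12.5 ± 1.59 and 11.4 ± 1.86 CPM per kb (SD, n = 12). Cd36, Irs1 and Pparg were lowest, with 9 ± 2.51, 8.94 ± 1.52 and 8.32 ± 1.47 CPM per kb (SD, n = 12). Mean CPM per kb was higher for Irs1 than for Cd36 at 18 months (8.05 and 7.91) and lower at 3 months (9.83 and 10.1). The Irs1 peak lies inside the gene within 1 kb of the start and does not cover the start itself. Each gene's range over libraries overlapped that of the next in this pooled order. All were read in the same libraries, so overlapping ranges do not tell whether a pair separates within each library, which was not tested.

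Position and abundance describe the members further. Of the 75 peaks, 9 lay at a start site (overlapping it or within 1 kb), 47 elsewhere inside a gene and 19 outside. At start sites 0 rose and 1 fell, inside genes 5 rose and 3 fell, and outside 1 rose and 1 fell (edgeR). Over the start-site peaks of protein-coding genes with a RefSeq start 32.0% passed, 3.38% higher and 28.6% lower. Of all peaks inside such genes and over 1 kb from a start 17.3% passed (8.07% higher, 9.21% lower), and of those outside but within 15 kb 18.4% (10.4% higher, 8.06% lower). These shares class a peak against all protein-coding genes, while the member counts class it against its member gene alone. Thus 8 member peaks counted as outside lay in other genes, and the outside peak that fell is at the Fance start. Peaks counted as inside Nr1h3 also lay within 1 kb of the Madd and Acp2 starts. The median log2 fold change was -0.12 at start sites and 0.09 inside genes. Member peaks were of ordinary width, 668 bp in the median where all tested peaks had 705 bp. In the 4 quartiles of abundance, from lowest to highest, 2 of 18, 3 of 20, 2 of 22 and 4 of 15 member peaks passed, beside 9.47%, 14.8%, 22.7% and 37.0% of all tested peaks. The ages did not overlap in CPM at 2 of the 75 member peaks, 1 higher and 1 lower at 18 months, and at 7.24% of all tested peaks (2.2% higher and 5.04% lower). At the edge of the 15 kb window, the furthest peak inside it was in Def6, 14.7 kb before Ppard (21.5 CPM at 18 months and 17.7 at 3 months). The nearest peak outside it lay 17.7 kb from Abcg1 (22.9 and 19.6 CPM).

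Within females 8 member peaks passed for age, 6 higher and 2 lower, beside 11.9% of all tested peaks (5.7% higher and 6.2% lower). Within males 3 passed, 1 higher and 2 lower, beside 11.4% (3.21% higher and 8.18% lower). Females and males share no libraries, and 51 of 75 member peaks (68.0%) had the same sign in each, beside 66.2% of all tested peaks. An interaction of age with sex was called at 0 member peaks in edgeR and at 0 in DESeq2, with 7 at an unadjusted edgeR p under 0.05. Over all tested peaks the interaction passed at 0.00532%, all of them with the lower value in males, and 10.0% had an unadjusted p under 0.05. The sex effect over both ages also passed at 0 member peaks in edgeR and at 0 in DESeq2, with 6 at an unadjusted edgeR p under 0.05. In that fit 0.162% of all tested peaks passed for sex (0.0186% higher in males and 0.144% lower) and 7.57% had an unadjusted p under 0.05. With sequencing run as a block, edgeR called 0 (0.0545% of all peaks), with 1 at an unadjusted p under 0.05 (5.28% of all peaks). The blocked fit compares the sexes only within the 2 runs that hold both, and these held 3-month mice alone. It therefore gives few libraries to the comparison and no value for 18 months. These counts moved with single mice. Within females 2 member peaks passed without the 18-month female 35 or 36 or the 3-month female of run 31 (6.67%, 6.31% and 6.71% of all peaks), and 3 without the 3-month female of run 28 (6.24%). By contrast, 13 passed without the 3-month male of run 30 or that of run 31 (15.7% and 14.7%). Female counts without the 18-month males 38 and 39, the 3-month male of run 29 and the 3-month female of run 29 were 4, 5, 4 and 5 (10.9%, 11.1%, 11.4% and 9.9%). Within males 6 passed without the 3-month male of run 31 (16.2%) and 3 without that of run 30 (9.52%).

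**Figure D4:**
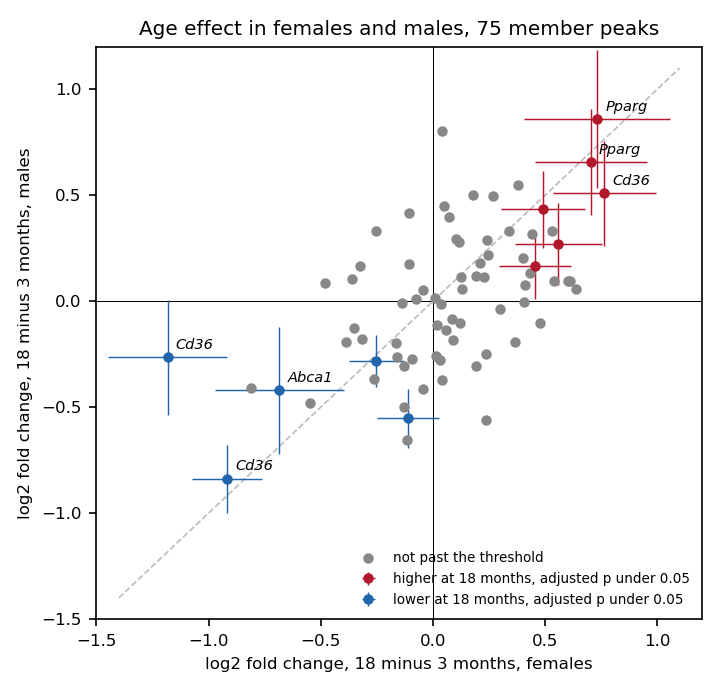
The log2 fold change of age in males is plotted against that in females for the 75 member peaks, with error bars of 1 SE for the 11 called over both sexes and a dashed line where both are equal. The 2152 bp Cd36 peak lies close to the line at -0.92 and -0.84, while the neighbouring Cd36 peak lies above it at -1.18 in females and -0.26 in males.

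Other genes of these pathways were read at 1 peak each, the strongest within 1 kb of a start. Of 152 such genes 125 had a peak, and 6 rose and 43 fell at 18 months, with a median log2 fold change of -0.20. Over the start-site peaks of all protein-coding genes with a RefSeq start 32.0% passed, 3.38% higher and 28.6% lower, with a median of -0.16. The split of the pathway genes became 12 higher and 19 lower with offsets fitted on peak width, where 7.4% and 15.6% of all starts were higher and lower. With offsets fitted on abundance it was 17 higher and 23 lower, beside 9.32% and 16.3% of all starts. Without the 3-month male of run 30 it was 10 higher and 41 lower, beside 5.78% and 28.1%. Those higher numbered 2 without the 18-month female 35 (2.45% of all starts), and 3 without the 18-month male 40 or the 3-month male of run 29 (2.77% and 2.58%).

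Of the insulin signalling list, 1 of 41 measured genes rose and 16 fell, with a median of -0.23. The lowest were Rictor (-0.57, edgeR adjusted p = 0.00125), a subunit of mTOR complex 2, Sos1 (-0.53, edgeR adjusted p = 5.31e-05), an exchange factor for Ras, and Tsc2 (-0.50, edgeR adjusted p = 0.000516), a brake on mTOR complex 1. Sh2b2, an adaptor of the insulin receptor, rose (0.43, edgeR adjusted p = 0.0128). Of the leptin and adipokine list, 1 of 17 rose and 9 fell, with a median of -0.28. Stat5b (-0.54), a transcription factor of cytokine receptors, Prkab1 (-0.51), a subunit of AMP-activated kinase, and Ptpn11 (-0.48), a phosphatase of receptor signalling, were lowest, all with an edgeR adjusted p of at most 0.000175. Retnlg, a resistin-like gene known from neutrophils and their precursors, rose (0.34, edgeR adjusted p = 0.0255).

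The nuclear receptors of lipid metabolism and their partners had 2 of 26 measured starts higher and 3 lower, with a median of -0.13. Nr4a1, an orphan nuclear receptor induced by many signals, rose from 17.7 ± 2.39 to 26.2 ± 3.07 CPM (SD, n = 6 each) with no overlap (log2 fold change 0.56, edgeR adjusted p = 0.000144). Cebpa, a transcription factor of fat cells and of granulocytes, rose by 0.27 (edgeR adjusted p = 0.0436). Of those that fell, Ncor1, a corepressor of nuclear receptors, went from 82.7 ± 13.8 to 58.3 ± 4.16 CPM (SD, n = 6 each, log2 fold change -0.50, edgeR adjusted p = 0.000107). Ncoa2, a coactivator, had -0.36 and Nr1d2, a receptor of the circadian clock, -0.28 (edgeR adjusted p = 0.0128 and 0.0476).

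Among genes of lipid uptake, efflux, storage and oxidation, 2 of 41 rose and 15 fell, with a median of -0.19. Fads1 (-0.63) and Fads2 (-0.57), desaturases of polyunsaturated fatty acids, and Lpcat3 (-0.52), which places such fatty acids into phospholipids and is an LXR target, fell with no overlap between ages (edgeR adjusted p at most 8.33e-05). Olr1, a receptor for oxidised LDL, rose from 5.35 ± 0.611 to 7.38 ± 1.11 CPM (SD, n = 6 each, log2 fold change 0.46, edgeR adjusted p = 0.0279). Plin3, a lipid droplet coat protein, rose by 0.29 (edgeR adjusted p = 0.0184), and both had no overlap between ages. Lep, Lpl and Fabp4, known from fat cells, had no peak at a gene start.

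**Figure D5:**
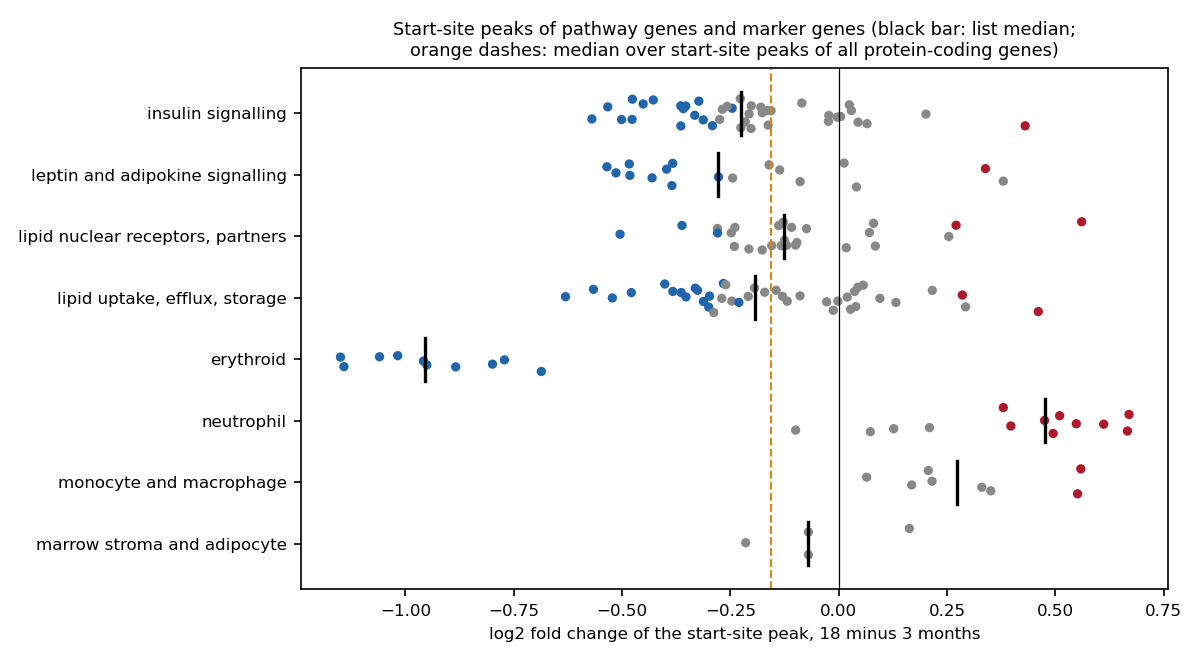
Each point is the log2 fold change (18 minus 3 months) of the start-site peak of a pathway or marker gene, red or blue where past the threshold, with black bars at list medians and an orange dashed line at the median over the start-site peaks of all protein-coding genes, -0.16. The medians of the 4 pathway lists run from -0.28 (leptin and adipokine signalling) to -0.13 (nuclear receptors), while all erythroid points lie below -0.6 and most neutrophil points above 0.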

How the data were processed

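Chromatin accessibility was measured by ATAC-seq in bone marrow of 12 NZO mice. The authors deposited a table of whole read counts for 75281 consensus peaks, with 1 as the smallest value, which compresses fold changes of the lowest peaks. Per the submitters' processing notes, Trimmomatic, BWA, MACS2, DiffBind and edgeR were used with mm10. The roles of these tools, the consensus rule, duplicate removal and the cut-site shift are not given in the sources used here. Where duplicate reads remain, the counts overstate the number of molecules.

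The 75164 peaks that exceeded 1 CPM in 2 or more libraries entered edgeR 4.0.16 in R 4.3.3 (TMM factors, quasi-likelihood F test). The model held age and sex as additive terms. For values within a sex and for the interaction it held 1 mean per group. Benjamini-Hochberg adjustment ran across every tested peak, a call needed an adjusted p under 0.05, and SEs were derived from the F statistic. CPM is scaled by TMM factors, and marker levels are means of log2(CPM + 0.5). The fit was also run on simulated counts with the same spread at every peak. These had no effect of sequencing run or cell makeup, so they do not bear on age against run in the real data.

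The alternatives were total counts, offsets fitted on abundance or on peak width, DESeq2 1.42.0, no filter, leaving out each mouse, and other distances. Named peaks were, per member, the start-site peak and up to 3 others with the smallest adjusted p. Of the other pathway genes, up to 3 called starts at either extreme per list were named, and all other names were chosen after their values were seen. Where RefSeq gave no start, either gene end served (Insr and Abcg1 among the members). The members, lists and tests were chosen with earlier results of these data known, among them the marker lists of blood lineages. Groups, runs and mouse numbers came from the labels. Intervals of depth cover counting error only, since no molecular identifiers are mentioned, and p-values measure the spread between mice, which lay within 1 run in each 18-month group and across 3 runs in each 3-month group.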

Additional observations from a re-analysis of the deposited data

Results flagged for a closer look

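In 5 of 70 sets of 6 libraries of an age at the named member peaks, the highest library stood far from the rest by Dixon's criterion, while chance gives about 1 in 20. The 3-month male of run 30 was highest at the Abcg1 start-site peak (31.5 CPM, next 23.4) and at the Insr peak from 3288352 to 3288942 (11.8 CPM, next 6.43). The 18-month male 40 was highest at the Insr peak from 3250950 to 3251730 (16.9 CPM, next 12.6) and at the Irs2 peak from 11021081 to 11021560 (9.41 CPM, next 5.95). The 18-month male 38 stood at the end of its age at the Irs1 peak nearest the start, with 7.42 CPM against 5.65 in the next library. B cell markers differed between the sexes: every 18-month female was above every 3-month female (mean log2 CPM difference 0.17), and every 18-month male was below every 3-month male (-0.38). This difference between the sexes was not tested.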

How the results depend on the processing

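The 3 called Cd36 peaks, the 418 bp Pparg peak and the Insr peak passed in all 17 alternative fits, and the main Cd36 element kept an edgeR adjusted p of at most 1.04e-05. The 392 bp Pparg peak passed in 16, the Fance peak in 12, the upstream Irs2 peak in 11, the Irs2 start and the Abca1 peak in 8 each and the Ppard peak in 6. Leaving out any of 10 mice lost the Ppard peak (adjusted p up to 0.132 over all alternatives), any of 7 the Abca1 peak (up to 0.155), any of 6 the Irs2 start (up to 0.900), any of 6 the upstream Irs2 peak (up to 0.1004) and any of 3 the Fance peak (up to 0.161). Member peaks higher at 18 months numbered 6, against 12 with total counts, 10 with abundance offsets and 11 of 109 within 50 kb, beside 9.43%, 14.9% and 9.64% of all peaks in the first 3. Lower peaks numbered 5, against 3 with total counts (11.6% and 8.82%). Female calls numbered 8, against 13 with total counts, 5 in DESeq2 and 14 from female libraries only (11.9%, 12.9%, 10.4% and 16.3% of all peaks). Male calls numbered 3, against 8 with total counts, 1 with abundance offsets (11.4%, 11.6% and 7.91%) and 1 of 64 within 5 kb. Pathway starts were 6 higher and 43 lower (3.38% and 28.6% of all starts), against 11 and 36 with total counts (7.07% and 22.7%). They were 17 and 23 with abundance offsets (9.32% and 16.3%) and 12 and 19 with width offsets (7.4% and 15.6%). With single mice left out, the ranges were 3 to 13 higher and 3 to 5 lower member peaks, 2 to 13 in females, 2 to 6 in males, 2 to 10 pathway starts higher and 35 to 55 lower (2.3% to 5.78% and 23.1% to 32.7% of all starts). The cause was not tested. Signs turned at the Irs1 peak from 82235610 (0.025 without the 18-month female 36, and down to -0.24 without the 18-month male 38) and at the Nr1h3 window peak from 91181981 (0.051 with abundance offsets), neither past the threshold. No paired analysis of age was possible because the groups share no mouse numbers and no run holds both ages. For sex, a fit with run as a block, chosen after seeing the data, called 0 member peaks (smallest edgeR adjusted p 0.897). Only runs of 3-month mice held both sexes, so this fit does not cover 18 months. Counts were low at the small peaks: 3 counts equal up to 0.391 CPM, so differences at peaks near 3 CPM were less precise.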
